A study of Homo sapiens with 10 samples.

Results

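In all, 10 human genes of the BCL2 family are described here in A549 and H1650, both lines of non-small cell lung cancer, in which the transcriptional regulator ID1 was targeted with siRNA. They are the anti-apoptotic genes BCL2L1, MCL1 and BCL2A1, the pore-forming effectors BAX and BAK1, and the BH3-only genes BID, BCL2L11, BIK, PMAIP1 and BBC3. The genes were listed by symbol, with earlier results of these data known, and found through the platform annotation. Of the 10 genes, 9 had at least 1 probe set of their own, 27 probe sets in all, and these 9 are among 19775 genes so measured. All 9 passed the filter on low signal with their brightest probe set. The probe set annotated to BBC3, which encodes PUMA, also carries the names of 2 microRNA genes, so no BBC3 value is given.

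The BCL2 family controls the release of cytochrome c from mitochondria. BAX and BAK1 form the pore in the outer membrane, BCL2L1 (BCL-XL), MCL1 and BCL2A1 (BFL-1) hold them in check, and BH3-only proteins such as BID, BCL2L11 (BIM), BIK and PMAIP1 (NOXA) either activate the effectors or occupy the anti-apoptotic proteins. Lung carcinoma cells often depend on BCL-XL and MCL1 for survival, and BIM is known as a mediator of death after loss of EGFR signalling. ID1 is a helix-loop-helix protein without a DNA-binding region that pairs with E proteins and keeps them off the E-box motif.

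Transcripts were measured on 10 Affymetrix U133 Plus 2.0 arrays, 5 for each line. H1650 carries a mutant EGFR, per the labels. In each line, 1 array came from cells with control siRNA and no stimulus, 1 from control siRNA with 1 µM nicotine, 1 from ID1 siRNA with nicotine, 1 from control siRNA with 100 ng/ml EGF and 1 from ID1 siRNA with EGF. All cells were serum-starved for 48 h and the stimuli were given for 18 h, so the controls share the starvation. No ID1 siRNA array without stimulus was analysed here, and siRNA sequences are not given in the sources used here. Each combination of line and condition is thus a single array, nothing in the labels says that the arrays come from separate cultures, and the p-values measure only the spread between these arrays, which may be technical.

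The targeted gene was lower on every ID1 siRNA array than on its matched control. ID1 signal was 63.9% lower under nicotine and 56% lower under EGF in A549, and 82.3% and 79.9% lower in H1650. Epithelial markers lay above the array median on all arrays of both lines for 6 of 6 genes (summed signal 73348 to 118217 in A549 and 103032 to 117533 in H1650). Blood cell markers summed to 84.8 to 155 in A549 and 134 to 215 in H1650. Of the 3 with a probe set, 0 lay above the median on all arrays of either line, and PTPRC lay below it on every array. Fibroblast markers summed to 428 to 1058 in A549 and 696 to 1180 in H1650. Of these 4 markers, 1 in A549 and 2 in H1650 lay above the median on all arrays of the line. Endothelial markers summed to 177 to 368 in A549 and 176 to 420 in H1650, and 1 of 3 lay above it on all arrays of each line. Of 4 lung lineage markers, 3 in A549 and 2 in H1650 lay above the median on all arrays of the line. NKX2-1 lay below it on every array of both lines. The A549 array labelled unstimulated control stood apart from the other A549 controls: its ID1 signal was 1645 against 3720 and 3049 in the stimulated controls, and its correlation over genes was 0.98 and 0.974 with the ID1 siRNA arrays and 0.973 and 0.969 with the stimulated controls. In H1650 the corresponding correlations were 0.974 and 0.972 against 0.988 and 0.98. The A549 array labelled unstimulated control is the only one of its line without stimulus. A trait of that array thus cannot be told apart from the lack of stimulus. The line differences use this array, and they are given with and without it.

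Of the 10 genes, 8 had an upstream window of 250 bases in the RefSeq table (GRCh38.p14), searched on both strands for the E-box CANNTG, the AP-1 motif TGANTCA, an interferon motif of a pair of GAAA stretches separated by 2 bases, and the NF-kB and p53 half-site motifs. E-boxes were found in the windows of BAX, BCL2A1 and BBC3. An AP-1 match lay in the BBC3 window, a p53 half-site match in that of BAK1, and no NF-kB match in any of the 8. The shares of all windows with a match were 6.57% for AP-1, 5.57% for the p53 half-site and 9.96% for NF-kB. The windows of BCL2L1, BAK1, PMAIP1, BID and BCL2L11 held no match to the E-box letters, and MCL1 and BIK had no entry. The 150 bases next to the start are shown for BAX, which held the most E-boxes, and for BCL2A1. Both are among the 5 genes whose response to ID1 siRNA differed between the lines. Of the others, BCL2L1 and PMAIP1 held no E-box and BIK had no entry. Whether these motifs bear on the responses was not tested. The BAX stretch is chr19:48954725-48954874 on the plus strand and the BCL2A1 stretch chr15:79971197-79971346 on the minus strand, and both are written toward the gene, with motif matches in capitals.
BAX: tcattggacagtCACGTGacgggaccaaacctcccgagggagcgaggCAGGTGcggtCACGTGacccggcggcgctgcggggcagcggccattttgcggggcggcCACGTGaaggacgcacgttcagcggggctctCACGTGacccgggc
BCL2A1: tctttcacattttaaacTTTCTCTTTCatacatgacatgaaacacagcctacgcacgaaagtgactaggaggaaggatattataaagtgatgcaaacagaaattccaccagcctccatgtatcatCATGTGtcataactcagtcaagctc
The 5 capital stretches in BAX are E-boxes, 4 of them of the form CACGTG and 1 CAGGTG. At least 5 E-boxes occurred in 312 of 35116 windows (0.888%), and at least 4 copies of CACGTG in 0.0142%, whereas 61.8% of windows held 1 or more E-boxes and the median window held 1. In BCL2A1 the second capital stretch is its E-box, and the first is a reverse-strand match to the interferon motif, which 3.02% of windows hold. These matches are descriptions of letters, and no binding was measured.

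The lines differed in the level of most of these genes, as they did for most tested genes, and not in 1 direction. A549 carried more BCL2A1 and BAX transcript, and H1650 carried more BIK, BCL2L11, BID and, by its brightest probe set, MCL1. Over 5 matched conditions, 7 of 9 genes passed the test, 3 higher and 4 lower in A549, against 63.1% of all tested genes (30.9% higher and 32.2% lower). With each array left out in turn the count was 6 to 7. The median difference was -0.10 on the log2 scale for the 9 genes and -0.03 for all tested genes.

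**Figure D1:**
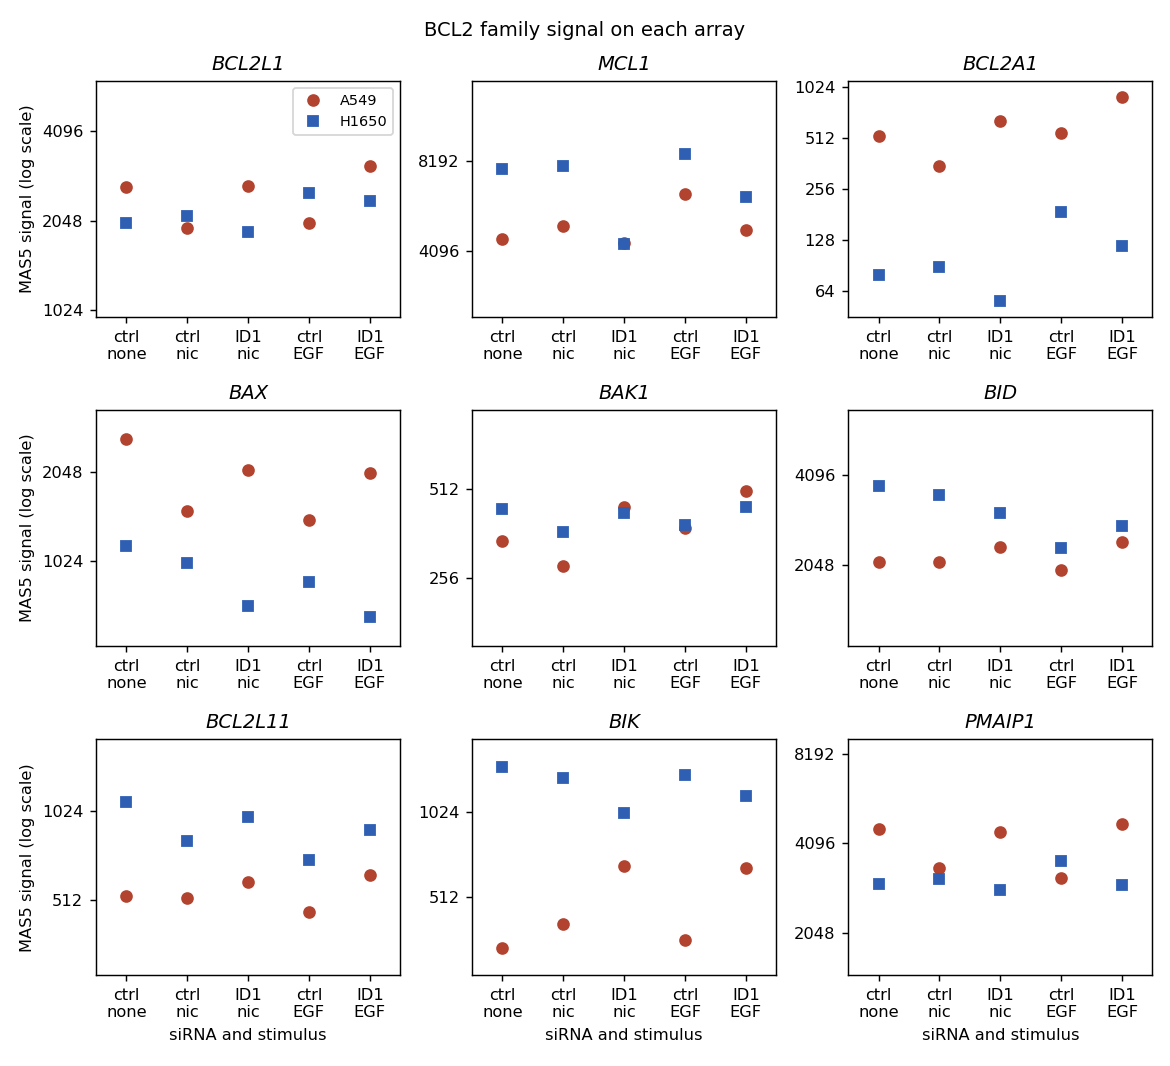
MAS5 signal of the brightest probe set of each of 9 BCL2 family genes on each of 10 arrays (y axis, log scale; x axis, siRNA and stimulus, with ctrl for control siRNA and nic for nicotine; red circles A549, blue squares H1650). The lines are apart for BCL2A1, BAX, BIK and BCL2L11, whereas BAK1 and BCL2L1 mix; A549 BIK lies between 339 and 659, H1650 BIK between 1013 and 1477.

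BCL2A1, an anti-apoptotic gene known as an NF-kB target, had the largest line difference among the 9 genes. Its signal in A549 was 530.5 without stimulus, 352 with nicotine and 649.5 with ID1 siRNA and nicotine, 555 with EGF and 893 with ID1 siRNA and EGF. In H1650 the same conditions gave 79.7, 89.7, 56.5, 188 and 118. Every A549 array was above every H1650 array, and the H1650 array with ID1 siRNA and nicotine lay below its own array's median, where array medians ranged from 61.2 to 79.6. The fitted difference was 2.54 ± 0.27 (SE, 5 matched conditions), or 5.82-fold (limma adjusted p = 6.24e-05). It was 2.49 without the A549 array labelled unstimulated control (adjusted p = 0.000621, the highest of 17 alternatives).

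BAX, the effector that moves from cytosol to mitochondria, was also higher in A549. Its A549 signals were 2636 without stimulus, 1515 with nicotine, 2086 with ID1 siRNA and nicotine, 1407 with EGF and 2027 with ID1 siRNA and EGF. The H1650 signals were 1155, 1010.2, 724, 872 and 665 in the same order. The lines did not overlap, and the highest A549 value was that of the array labelled unstimulated control. The difference was 1.12 ± 0.17 or 2.17-fold (adjusted p = 0.000413), and it passed without that array (adjusted p = 0.00268, the highest of 19 alternatives). A second BAX probe set gave 1.02 ± 0.15. In bulk RNA such as this, a smaller number of cells with the transcript and less transcript per cell cannot be told apart.

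BIK, a BH3-only gene whose product sits at the endoplasmic reticulum, showed the opposite order. Its signal in A549 was 339 without stimulus, 410.1 with nicotine, 659 with ID1 siRNA and nicotine, 362 with EGF and 650.0 with ID1 siRNA and EGF. In H1650 it was 1477, 1345, 1013, 1378 and 1167. No A549 array reached the lowest H1650 array. The difference of -1.45 ± 0.23 (adjusted p = 0.000562) was -1.28 without the A549 array labelled unstimulated control (adjusted p = 0.00274) and -1.92 over the control siRNA arrays alone, and the lines stood nearer to each other on the ID1 siRNA arrays.

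BCL2L11, which encodes the BH3-only protein BIM, was lower in A549 as well. The A549 arrays read 529 without stimulus, 523 with nicotine, 588 with ID1 siRNA and nicotine, 466 with EGF and 624 with ID1 siRNA and EGF. The H1650 arrays read 1098, 811, 978, 700.4 and 882, so that the ranges were apart. The difference was -0.70 ± 0.11 (adjusted p = 0.000705), and -0.61 without the A549 array labelled unstimulated control (adjusted p = 0.00262). BIM has many splice forms, and 6 of its 7 probe sets passed the filter: all 6 were lower in A549, from -1.19 to -0.35, and 5 passed the test, 1 of them below the array median on 4 of 5 A549 arrays.

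MCL1, BID and PMAIP1 differed by less, and their calls depended on the probe set, for MCL1 and PMAIP1 also on the normalization. MCL1, a short-lived anti-apoptotic protein, had A549 signals of 4503, 4959, 4335, 6382 and 4826 and H1650 signals of 7723, 7887, 4315, 8669 and 6197, in the order control, control with nicotine, ID1 siRNA with nicotine, control with EGF and ID1 siRNA with EGF. The A549 and H1650 arrays with ID1 siRNA and nicotine read nearly alike, while the other H1650 arrays exceeded their A549 counterparts. The difference was -0.45 ± 0.12 (adjusted p = 0.0114) by the brightest probe set, whose name marks it as able to match other transcripts. It was 0.25 ± 0.11 by the next brightest (adjusted p = 0.0743 over all probe sets), and over 6 probe sets it ranged from -0.77 to 0.29. The lowest values, -0.77 and -0.76, came from 2 dim probe sets. Their stimulated A549 controls lay below the array median, and the next lowest value was -0.48. After array-median centring MCL1 gave -0.29 and did not pass (adjusted p = 0.0638), and without the A549 array labelled unstimulated control it gave -0.37 (adjusted p = 0.0467); over 19 alternatives its adjusted p ranged from 0.00394 to 0.195. BID, which links death receptors to mitochondria, was lower in A549 by -0.48 ± 0.12 (adjusted p = 0.00745), or -0.39 without that array (adjusted p = 0.0277), and its other probe sets gave -0.13 and -0.20 and did not pass. PMAIP1, a p53 target that binds MCL1, was higher in A549 by 0.37 ± 0.14 (adjusted p = 0.045), and the call was lost in 13 of 19 alternatives. Among them were quantile normalization (0.36, adjusted p = 0.0606) and leaving out the A549 array labelled unstimulated control (0.32, adjusted p = 0.136).

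BCL2L1 and BAK1 did not pass the test between lines at the deposited scaling. BCL2L1 gave 0.17 ± 0.14 (adjusted p = 0.307) by its brightest probe set, and the other 3 of its probe sets passed, with 1.41 ± 0.20, 0.52 ± 0.14 and 0.48 ± 0.14. After array-median centring the brightest BCL2L1 probe set gave 0.33 and passed (adjusted p = 0.0401), and without the A549 array labelled unstimulated control it gave 0.11 (adjusted p = 0.571); over 19 alternatives its adjusted p ranged from 0.000328 to 0.937. BAK1 gave -0.10 ± 0.13 (adjusted p = 0.526), or -0.04 without that array, and its signal lay between 281 and 504 in A549 and between 366 and 445 in H1650. On the chosen probe sets, the 2 lines did not overlap for 4 of 9 genes, BCL2A1, BAX, BIK and BCL2L11, where 50% of all tested genes did not overlap.

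**Figure D2:**
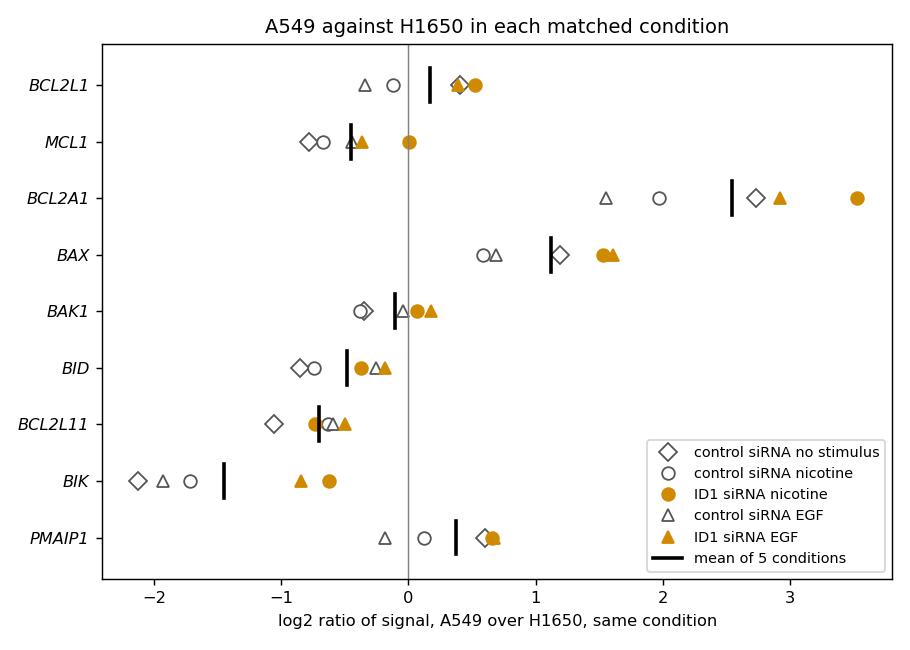
Log2 ratio of A549 over H1650 signal in each of 5 matched conditions for 9 BCL2 family genes (x axis; symbols, conditions; open, control siRNA; filled, ID1 siRNA; black bars, mean of the 5). BCL2A1 and BAX lie right of 0 and BIK, BID and BCL2L11 left of 0 in every condition, with means of 2.54, 1.12, -1.45, -0.48 and -0.70. Both ID1 siRNA symbols lie right of all control symbols for BIK, BAX, BCL2A1, BAK1, PMAIP1 and MCL1.

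ID1 siRNA was followed by higher signals of both pro- and anti-apoptotic genes in A549. BIK, BCL2A1, BCL2L1, BAK1, PMAIP1 and BAX passed as higher, and none of the 9 genes passed as lower. BCL2L11, BID and MCL1 did not pass, and MCL1 was lower in both pairs (-0.19 and -0.40). The calls were 6 of 9 genes, all higher, where 25.3% of all tested genes passed (13.8% higher and 11.4% lower). The median change was 0.51 for the 9 genes and 0.05 for all tested genes. These changes are relative to the deposited scaling: A549 array medians were higher by 0.27 and 0.31 (log2) with ID1 siRNA, and centring each array on its median shifted the median effect of all tested genes by -0.29. After that centring 1 gene rose, BIK, and 1 fell, MCL1, and among all genes the split of 1733 higher and 1428 lower turned to 948 higher and 3966 lower.

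BIK kept its call under both scalings. In A549 it went from 410.1 to 659 under nicotine and from 362 to 650.0 under EGF, the signals given above, and no ID1 siRNA array overlapped a control. The change was 0.76 ± 0.13 or 1.70-fold (2 of 2 pairs higher, limma adjusted p = 0.00333). It passed in all 16 alternatives run for it, with adjusted p from 0.000228 to 0.0433, and stood at 0.48 after centring (adjusted p = 0.0132).

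The anti-apoptotic genes BCL2L1 and BCL2A1 rose too. BCL2L1 in A549 read 2663 without stimulus, 1940.1 with nicotine, 2688 with ID1 siRNA and nicotine, 2008 with EGF and 3124 with ID1 siRNA and EGF. Both ID1 siRNA arrays were above the stimulated controls, but the array labelled unstimulated control reached nearly the same signal. The change was 0.55 ± 0.10 (adjusted p = 0.0046), 0.27 after centring (adjusted p = 0.067), and it did not pass without either EGF array (0.47, adjusted p = 0.0678 without the ID1 siRNA array). Its adjusted p ranged from 0.000678 to 0.0678 over 17 alternatives. A dimmer BCL2L1 probe set moved further: in A549 it read 951, 396, 904, 418 and 1251 in the same order, a change of 1.39 ± 0.16 (adjusted p = 0.000908 over all probe sets). The other BCL2L1 probe sets gave 0.16 ± 0.21 and 0.23 ± 0.17 and did not pass. BCL2A1 changed by 0.78 ± 0.21 or 1.72-fold (2 of 2 pairs higher, adjusted p = 0.0271), 0.50 after centring (adjusted p = 0.0969), and it did not pass without any 1 of the 4 stimulated A549 arrays (adjusted p = 0.112 to 0.16). Over 15 alternatives its adjusted p ranged from 0.00948 to 0.229, and 8 kept the call.

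Among the effectors and BH3-only genes, BAX changed by 0.49 ± 0.11 (adjusted p = 0.0104) and its second probe set by 0.22 ± 0.12 (adjusted p = 0.239). The array labelled unstimulated control, at 2636, was above both ID1 siRNA arrays. BAX did not pass without any 1 of the 4 stimulated A549 arrays (adjusted p = 0.0514 to 0.113), and it kept its call in 9 of 17 alternatives (adjusted p = 0.00252 to 0.258). BAK1, the effector resident in the mitochondrial membrane, read 342 without stimulus, 281 with nicotine, 445 with ID1 siRNA and nicotine, 377 with EGF and 504 with ID1 siRNA and EGF. Its change was 0.54 ± 0.17 (adjusted p = 0.0452), and it too did not pass without any 1 of those arrays (adjusted p = 0.109 to 0.247), with 6 of 15 alternatives keeping the call (adjusted p = 0.0346 to 0.286). PMAIP1 read 4566, 3376, 4484, 3138 and 4759 in the same order and changed by 0.51 ± 0.10 (adjusted p = 0.00791). Both PMAIP1 ID1 siRNA arrays were above the stimulated controls and near the array labelled unstimulated control. Its second probe set read 2633, 1467, 3460, 1573 and 3223 and gave 1.14 ± 0.10 (adjusted p = 0.000233 over all probe sets). Without either EGF array, the brighter PMAIP1 probe set gave 0.41 and did not pass (adjusted p = 0.0958 and 0.0962), and over 17 alternatives its adjusted p ranged from 0.000512 to 0.152.

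For BID and MCL1 the probe sets gave different calls. BID in A549 read 2091, 2100.5, 2355, 1968 and 2438 by its brightest probe set, which gave 0.24 ± 0.12 (adjusted p = 0.188), while the other 2 gave 0.68 ± 0.11 (adjusted p = 0.0043 over all probe sets) and 0.69 ± 0.14 (adjusted p = 0.0103) and passed. MCL1 gave -0.30 ± 0.12 by the brightest probe set (adjusted p = 0.11) and -0.46 ± 0.15 by the next (adjusted p = 0.0584). Of its 4 dimmer probe sets, 2 passed, both higher. The brighter of those 2 gave 0.55 ± 0.16 (adjusted p = 0.0384), and another that did not pass gave 0.44 ± 0.17 (adjusted p = 0.107). On the remaining 2, both stimulated A549 controls lay below their array medians, so no fold is given for them. The controls of the first read 53.8 with nicotine and 35.2 with EGF, and it did not pass. Those of the second read 57.9 and 10.6, and it passed (limma adjusted p = 0.0208 over all probe sets). BCL2L11 gave 0.30 ± 0.13 (adjusted p = 0.141), and none of its 6 probe sets passed.

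**Figure D3:**
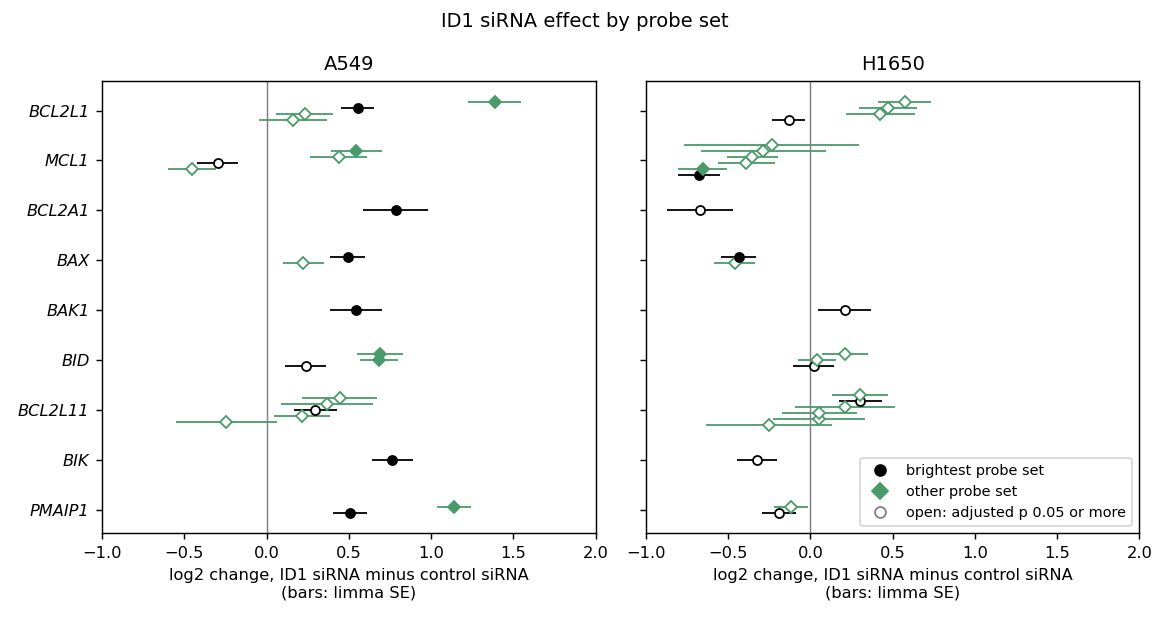
Log2 change with ID1 siRNA (x axis, with limma SE bars) for each probe set that passed the filter, by gene, in A549 (left) and H1650 (right); black, the brightest probe set; green, the others; filled, adjusted p under 0.05; 3 probe sets with both control arrays below the array median in A549 are left out there. In A549 the MCL1 probe sets shown run from -0.46 to 0.55 and those of BCL2L1 from 0.16 to 1.39, whereas the 6 MCL1 probe sets in H1650 all lie below 0.

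In H1650, ID1 siRNA was followed by lower MCL1 and BAX. These were 2 of 9 genes, both lower, where 12.3% of all tested genes passed (5.64% higher and 6.66% lower). The median change was -0.19 for the 9 genes and -0.01 for all. MCL1 went from 7887 to 4315 under nicotine and from 8669 to 6197 under EGF, with both ID1 siRNA arrays also below the unstimulated control at 7723. The change was -0.68 ± 0.12 (2 of 2 pairs lower, adjusted p = 0.0106), all 6 MCL1 probe sets were negative, from -0.68 to -0.24, and the 2 brightest passed. It was -0.48 and did not pass without either nicotine array (adjusted p = 0.143 and 0.156), and 13 of 17 alternatives kept the call (adjusted p = 0.00249 to 0.156). BAX went from 1010.2 to 724 and from 872 to 665, below every H1650 control array. Its change was -0.44 ± 0.11 (adjusted p = 0.0304), its second probe set gave -0.46 ± 0.12 (adjusted p = 0.0508), and the call was lost without any 1 of the 4 stimulated H1650 arrays (adjusted p = 0.0712 to 0.171), with 9 of 17 alternatives keeping it (adjusted p = 0.016 to 0.171).

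The other genes did not pass in H1650. BCL2A1 gave -0.67 ± 0.21 (adjusted p = 0.0748), with its control under EGF the highest H1650 array. BIK gave -0.32 ± 0.13 (adjusted p = 0.135), and both of its ID1 siRNA arrays lay below the controls. BCL2L11 gave 0.30 ± 0.13 (adjusted p = 0.19), BAK1 0.21 ± 0.17, PMAIP1 -0.19 ± 0.10, BCL2L1 -0.13 ± 0.10 and BID 0.02 ± 0.12. Of the 4 BCL2L1 probe sets, 3 were positive and 0 passed. ID1 siRNA and control arrays did not overlap for 9 of 9 genes in A549, 8 higher and 1 lower, where 62.3% of all tested genes did not (34.8% higher and 27.5% lower), and for 6 of 9 in H1650, where 53% did not.

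The response to ID1 siRNA differed between the lines for 5 of the 9 genes, all with the larger value in A549, where 11.9% of all tested genes differed (6.98% higher in A549 and 4.92% lower). BCL2A1 differed by 1.46 ± 0.30 (limma adjusted p = 0.0171), BIK by 1.09 ± 0.18 (adjusted p = 0.00664) and BAX by 0.93 ± 0.15 (adjusted p = 0.00617). Low BCL2A1 signal in H1650, from 56.5 to 188 where array medians ranged from 61.2 to 79.6, limits its difference. PMAIP1 differed by 0.70 ± 0.14 (adjusted p = 0.017) and BCL2L1 by 0.69 ± 0.14 (adjusted p = 0.0162). Each of these was positive in A549 and negative in H1650 by its brightest probe set. For BCL2L1 this rested on that probe set alone: the other 3 were positive in H1650 too, with 0.57 ± 0.16, 0.47 ± 0.17 and 0.43 ± 0.21. BCL2A1, BIK and BAX still passed after array-median centring, while BCL2L1 gave 0.45 (adjusted p = 0.0557) and PMAIP1 0.46 (adjusted p = 0.0646). Over 17 alternatives each, the adjusted p ranged from 0.00595 to 0.404 for BCL2L1 and from 0.00308 to 0.122 for PMAIP1. BCL2A1 did not pass without the matched-pair block (14 of 15 alternatives kept the call), BIK without the intensity trend (15 of 16), nor BAX without the trend or with its second probe set among the genes (15 of 17). That BAX probe set gave 0.68 ± 0.18, with an adjusted p of 0.0613 among the genes and 0.0485 over all probe sets. For BCL2L1 the 4 probe sets gave differences from -0.27 to 0.81, and 1 passed. The difference was 0.38 ± 0.17 for MCL1 (adjusted p = 0.195), 0.33 ± 0.24 for BAK1 (adjusted p = 0.392) and -0.01 ± 0.19 for BCL2L11.

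Some array measures moved with ID1 siRNA as well. The hybridisation spike bioB was brighter on the ID1 siRNA array than on its control by ratios of 1.5 and 1.67 in A549 and 1.30 and 1.29 in H1650, bioC by 1.30, 1.34, 1.12 and 1.23, while cre gave 1.03, 0.831, 1.02 and 1.14. Ratios of 3' to 5' GAPDH signal ranged from 0.887 to 0.945 over the 10 arrays. The part of these differences in the changes of the BCL2 family genes was not tested.

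**Figure D4:**
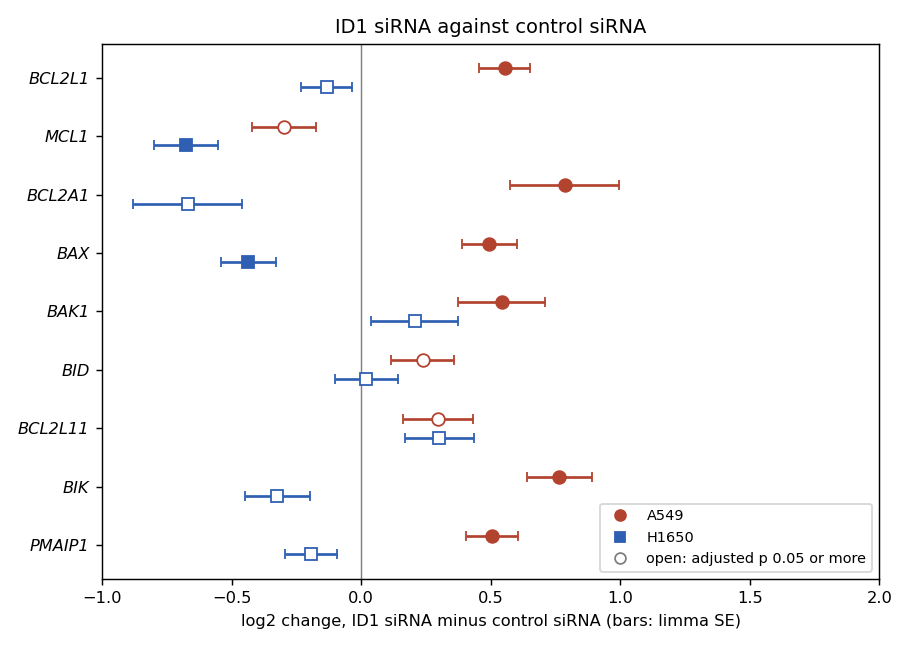
Log2 change with ID1 siRNA (x axis, with limma SE bars) in A549 (red circles) and H1650 (blue squares) for the brightest probe set of 9 BCL2 family genes; filled, adjusted p under 0.05. The 6 filled A549 genes run from 0.49 (BAX) to 0.78 (BCL2A1), and the filled H1650 genes are MCL1 at -0.68 and BAX at -0.44.

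Neither stimulus changed a BCL2 family gene past the test. EGF is a growth factor whose receptor is mutant in H1650, and nicotine acts through acetylcholine receptors. For EGF against nicotine, 0 of 9 genes passed in A549 (0.032% of all genes; 1 of the 9 at an unadjusted p under 0.05), 0 in H1650 (0.216%; 4 of the 9 unadjusted) and 0 for the difference between lines (0.0799%; 0 unadjusted). For nicotine against no stimulus 0 passed (0% of all genes; 0 unadjusted), for EGF against no stimulus 0 (0%; 2 unadjusted), and for the ID1 siRNA effect under EGF against that under nicotine 0 (0%; 0 unadjusted), all by limma. The contrasts of nicotine and of EGF with no stimulus share the unstimulated arrays.

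BCL2A1 came nearest. In H1650 its EGF arrays, at 188 with control siRNA and 118 with ID1 siRNA, were above the nicotine arrays, at 89.7 and 56.5. The difference was 1.07 ± 0.21 (2 of 2 pairs higher, adjusted p = 0.0894), and 1.12 after array-median centring, where it passed (adjusted p = 0.0454, against 0.0454 to 1 over 15 alternatives). In A549 it was 0.56 ± 0.21 (adjusted p = 0.514), and the difference between lines was -0.51 ± 0.30 (adjusted p = 0.718). BID in H1650 pointed the other way: it read 3764 without stimulus, 3510.0 with nicotine, 3049.6 with ID1 siRNA and nicotine, 2340.2 with EGF and 2767 with ID1 siRNA and EGF. Both EGF arrays were the lowest in that line, with a difference from nicotine of -0.36 ± 0.12 (adjusted p = 0.335). BCL2L1 in H1650 gave 0.30 ± 0.10 (adjusted p = 0.319) and MCL1 0.33 ± 0.12 (adjusted p = 0.389). EGF and nicotine arrays did not overlap for 0 of 9 genes in A549, where 21.8% of all genes did not, and for 3 of 9 in H1650 (BCL2A1 and BCL2L1 higher, BID lower with EGF), where 27.7% did not.

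Single pairs of a stimulated and the unstimulated control within a line have no replicate check. Of 36 such values for the 9 genes, 1 was past 2-fold, BCL2A1 under EGF in H1650, at 2.36-fold (188 against 79.7), where 3.44% of all genes were past 2-fold in that pair (1.35% higher). The unstimulated H1650 signal of BCL2A1, 79.7, lay near its array median of 73.5. In the other pairs the share of all genes past 2-fold was 1.61% for nicotine in H1650, 5.09% for nicotine in A549 and 6.75% for EGF in A549. BAX in A549 was lower under both stimuli than on the array labelled unstimulated control, with log2 ratios of -0.80 and -0.91, against -0.19 and -0.41 in H1650. Over both lines BAX gave -0.66 ± 0.26 for EGF against no stimulus (adjusted p = 0.831) and BCL2L11 -0.42 ± 0.18 (adjusted p = 0.831). Without the A549 array labelled unstimulated control, 0 of 9 genes passed for either stimulus against none.

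**Figure D5:**
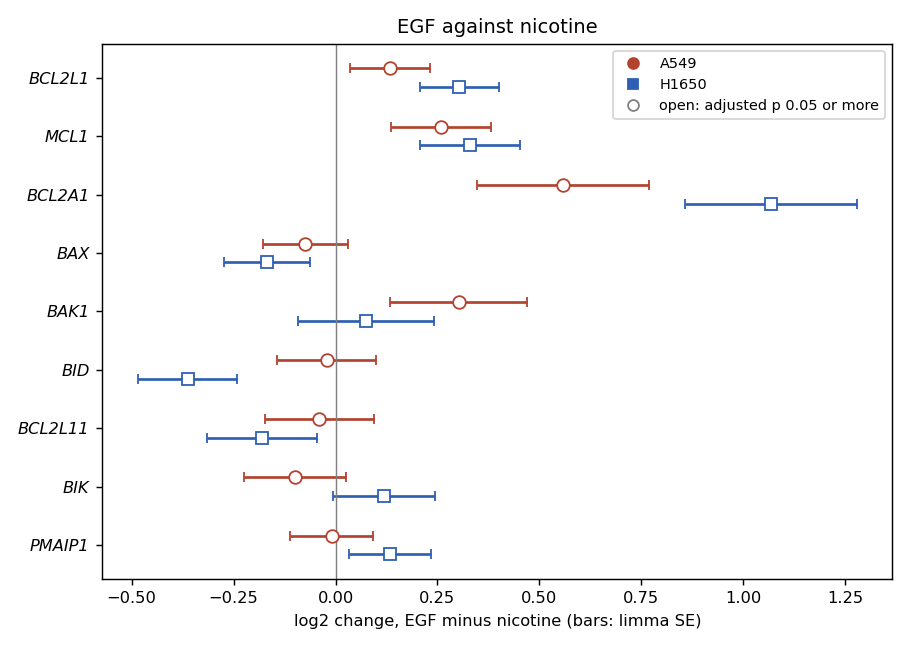
Log2 change of EGF against nicotine (x axis, with limma SE bars) in A549 (red circles) and H1650 (blue squares) for the brightest probe set of 9 BCL2 family genes. All symbols are open (adjusted p of 0.05 or more), and BCL2A1 has the highest values, 0.56 in A549 and 1.07 in H1650.

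The genes around the BCL2 family in the death pathway were read from 7 lists. Their counts stand against 13.8% higher and 11.4% lower among all tested genes for ID1 siRNA in A549, and 5.64% and 6.66% in H1650. Counts after array-median centring in A549 stand against 948 higher and 3966 lower of 12514 tested genes. Upstream, the regulators of BCL2 family transcription moved in A549: with ID1 siRNA 8 of 14 tested rose and 0 fell, led by ATF3 (1.52 ± 0.16), DDIT3 (0.97 ± 0.22), RELB (0.85 ± 0.15) and JUN (0.84 ± 0.11). ATF3 and DDIT3 are stress-induced, RELB is an NF-kB subunit and JUN a subunit of AP-1. After array-median centring 5 rose and 3 fell. In H1650 RELB fell (-0.93 ± 0.15) and E2F1, a cell cycle factor, rose (0.56 ± 0.15). The difference between lines passed for RELB (1.78 ± 0.22), ATF3 (1.20 ± 0.22), FOXO3 (0.52 ± 0.14) and E2F1 (-0.99 ± 0.22).

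Death receptors and their complex, which feed into BID through CASP8, had 4 of 12 genes higher and 1 lower with ID1 siRNA in A549, and 2 higher and 4 lower after centring. TNFSF10, the ligand TRAIL, rose by 2.43 ± 0.35, the receptor FAS by 1.57 ± 0.14 and CASP8, the initiator caspase, by 0.49 ± 0.11. TNFRSF1A, a TNF receptor, fell by 0.63. In H1650 the decoy receptor TNFRSF10D rose by 0.96 ± 0.17, and TRADD and TNFRSF10A fell by 0.63 and 0.60. TNFSF10 (3.02 ± 0.50) and FAS (1.36 ± 0.20) responded more in A549 than in H1650, and TNFRSF10D (-0.93 ± 0.24) less.

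Downstream of the pore, 0 of 12 apoptosome and executioner genes rose and 3 fell in A549, among them AIFM1 (-0.46 ± 0.12) and DIABLO (-0.40 ± 0.09), an antagonist of the inhibitors of apoptosis, and after centring 0 rose and 7 fell. In H1650 CASP9 (-0.97 ± 0.20) and DIABLO (-0.52 ± 0.09) fell and HTRA2 (0.52 ± 0.13) rose. Of 6 inhibitors of apoptosis tested, BIRC5 (survivin) passed, lower in A549 (-0.42 ± 0.13) and higher in H1650 (0.91 ± 0.13), and its difference was -1.32 ± 0.18; after centring 2 inhibitors fell in A549. Of 5 mitochondrial partners, VDAC2 (-0.53 ± 0.15), which holds BAK1 at the membrane, and VDAC3 (-0.46 ± 0.12) fell in A549 and 0 passed in H1650, and all 5 fell in A549 after centring. Of 11 other BCL2 family genes, BNIP3, known for mitophagy, fell in both lines (-0.88 ± 0.13 and -0.58 ± 0.13) and BCL2L13 fell in H1650 (-0.67 ± 0.16), with 3 lower in A549 after centring. None of the 5 tested genes that control turnover of BCL2 family proteins passed in either line, and after centring 2 fell in A549.

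Between lines, 6 of 11 other BCL2 family genes were lower in A549 and 1 higher. Among all tested genes 32.2% were lower and 30.9% higher. The list gave 6 lower and 2 higher after centring, where 3187 of 12514 tested genes were lower and 4577 higher. It gave 6 and 1 when the A549 array labelled unstimulated control was left out, where 3630 were lower and 3525 higher. HRK, a BH3-only gene, was lower by -3.19 ± 0.32 and BOK, an effector relative, by -1.78 ± 0.15, while BCL2L15 was higher by 2.00 ± 0.23. Death receptor genes split, with 5 of 12 higher and 4 lower in A549, or 4 and 4 without that array and 6 and 3 after centring: the TRAIL receptor TNFRSF10B differed by 2.33 ± 0.13 and TNFRSF10D by 1.32 ± 0.34, against -1.22 ± 0.31 for CASP10. AIFM1 (1.42 ± 0.10) and VDAC3 (1.33 ± 0.12) were higher in A549. None of the genes on the 7 lists passed for EGF against nicotine or for a stimulus against none.

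For each gene, the tested gene whose log2 signal, centred within each line, followed it most closely over the 10 arrays was found by Pearson r. These were STK17A for BCL2L1 (0.988), TIMP1 for MCL1 (0.971), MMP1 for BCL2A1 (0.981), ANKRD46 for BAX (0.955), FBXO31 for BAK1 (0.977), PLXND1 for BID (0.971), LENG9 for BCL2L11 (0.957), RING1 for BIK (0.986) and RTCA for PMAIP1 (0.991). The points share the arrays and their scaling, and each r is the highest of 12514 genes, so it is a description of these arrays.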

How the data were processed

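The values are linear MAS5 signal intensities, 1 per probe set, that the authors made with GCOS 1.4 and MAS5 per the submitters' processing notes and deposited with each array's 2% trimmed mean at 500. Here log2 was taken. Probe sets annotated to 1 symbol (41097 of 54675, 41043 matched by Entrez identifier) were kept, with the highest mean log2 signal standing for each of 19775 genes. Genes whose mean reached the median probe set (log2 6.06, or a signal of 66.7), 12514 in number, entered limma 3.58.1 in R 4.3.3, with an intensity trend and Benjamini-Hochberg adjustment over all of them, at 0.05. Other probe sets were adjusted over all probe sets tested. Line differences and contrasts with the unstimulated condition came from line and condition terms over 10 arrays (4 residual degrees of freedom), and ID1 siRNA effects and EGF against nicotine from 8 stimulated arrays with 4 matched pairs as blocks (2 residual degrees of freedom). Errors are limma standard errors, and the number of arrays limits the precision. The fits were also run on simulated data with independent noise for each gene and array. Those runs held no shift of whole arrays, and their outcome is not given here. Sequences are from RefSeq, GRCh38.p14.

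Named were all 10 genes, up to 4 called genes of each list and comparison with the largest change, the nearest gene of each, ID1 and spikes. The members and lists were chosen with earlier results of these data known. Other normalizations, filters, probe set rules and blocks were tried, and each array was left out in turn.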

Additional observations from a re-analysis of the deposited data

Results flagged for a closer look

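The ID1 siRNA effect in A549 minus that in H1650 passed limma's test of the difference itself for 5 of the 9 genes. The values, by the brightest probe set, were 1.46 for BCL2A1, 1.09 for BIK, 0.93 for BAX, 0.70 for PMAIP1 and 0.69 for BCL2L1. For BCL2L1, 1 of 4 probe sets passed, and their differences ran from -0.27 to 0.81. ID1 signal itself fell further in H1650 (-2.40 ± 0.11) than in A549 (-1.33 ± 0.11).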

How the results depend on the processing

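The count of genes called for ID1 siRNA in A549 (6) was 2 after array-median centring and 2 without the intensity trend, and 1 to 6 when an array was left out, with 3 without either A549 nicotine array and 1 without either A549 EGF array. The count in H1650 (2) was 0 with the mean of all probe sets and 0 without the trend, 1 without the matched-pair block, and 0 to 2 with an array left out. The count of differences between lines (5) was 3 after centring, 1 without the trend, 3 without the matched-pair block and 3 to 5 with an array left out. EGF against nicotine in H1650 (0) gave 1 after centring, and single pairs past the threshold (1) were 6 at 1.5-fold. Centring shifted the median of all tested genes by 0.16 between lines and by -0.24 for the difference in ID1 siRNA effect, and all genes higher and lower in A549 then numbered 4577 and 3187, against 3862 and 4031. The direction reversed for MCL1 between lines with the next brightest probe set (0.25, adjusted p = 0.0778) and for MCL1 with ID1 siRNA in A549 with the mean of all probe sets (0.56, adjusted p = 0.0439), which takes in 2 dim probe sets whose A549 controls lay below the array median. The cause was not tested. Without the trend, all-gene calls were 1394 for ID1 siRNA in A549 and 1 in H1650. Of 1525 alternative values for the 90 gene results, 1436 kept their side of the threshold, 78 lost a call, 9 gained one and 2 reversed, and 87 uncalled values changed sign. Most of the 90 were uncalled, many in stimulus contrasts where at most 27 of 12514 genes passed, so the total does not measure how stable the calls are. A call could be lost only in the comparisons that had calls: 7 genes between lines, 6 and 2 for ID1 siRNA in A549 and H1650, and 5 for the difference in effect. Low signal limits BCL2A1 in H1650. The labels carry no replicate numbers that pair arrays.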
